A study of Mus musculus with 15 samples.

Results

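The genes described here are 9 transcription factors that act in the making and function of myeloid cells: Spi1, Cebpa, Cebpb, Cebpd, Cebpe, Irf8, Gfi1, Klf4 and Egr2. They were chosen by name, and each was looked for among the probe sets whose platform annotation gives a single gene symbol. Of the 9, 8 had a row, 1 probe set each, among 14860 genes tested, and Cebpd had none and is not analysed here. RNA came from Sca1+ spleen cells of transgenic FVB/N mice, and each of 15 Affymetrix Mouse Exon 1.0 ST arrays held the RNA of 1 mouse.

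The mice fell into 5 genotypes of 3 arrays each. MRP8NRASD12 mice carry mutant NRAS under the MRP8 promoter, which is active in myeloid cells, and MRP8hBCL2 mice carry human BCL2 under that promoter. In tethBCL2 mice the BCL2 transgene is under a tetracycline-controlled element that a transactivator switches on from the MMTV long terminal repeat. HR-MDS mice, a model of high-risk myelodysplastic syndrome, combine MRP8NRASD12 with tethBCL2, and AML post MDS mice, a model of acute myeloid leukaemia after myelodysplasia, combine MRP8NRASD12 with MRP8hBCL2. All 5 groups therefore carry at least 1 transgene, and arrays of FVB/N mice without a transgene were not analysed here. The spleens of AML post MDS mice were taken at a younger age than those of HR-MDS mice, and no age was found for the single transgenic mice. The deposited labels call the disease state AML for every sample, the single transgenic mice included, so groups were taken from the genotype label.

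Myeloid differentiation is driven by a small set of DNA-binding proteins that act in sequence and on each other. PU.1, the ETS-family protein encoded by Spi1, is required for the myeloid and B lymphoid lineages. The C/EBP proteins are basic leucine zipper factors: C/EBP alpha is needed for the granulocyte and monocyte progenitor, C/EBP beta for granulocyte production under stress, and C/EBP epsilon for the late steps in which neutrophils fill their secondary granules. IRF8 drives monocyte and dendritic cell fates at the expense of neutrophils, the zinc finger repressor GFI1 acts in the neutrophil branch, KLF4 promotes monocyte differentiation, and EGR2 acts in macrophages and is also induced by receptor signals in lymphocytes.

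The values were log2 expression as deposited, and a difference of 1 is a 2-fold change. Array medians ran from 6.55 to 6.88. The 3 MRP8NRASD12 arrays correlated less well with each other (mean r with the rest of the group 0.976 to 0.984, over genes) than the arrays of the other groups did (0.986 to 0.994). The sorting antigen gene Ly6a had no row, so the Sca1 label could not be checked. B cell markers were high in every group, with a summed level of 14.4 to 15.2 on the log2 scale over 9 of 10 genes, and so these libraries hold RNA of lymphocytes beside that of myeloid cells. In such bulk RNA, fewer cells of a type and less RNA per cell cannot be told apart. The Y-linked gene Eif2s3y was at 3.64 to 4.01 in all 3 MRP8NRASD12 mice and in AML post MDS mouse 3518, and at 9.25 to 10.3 in the other 11 mice. Sex and genotype therefore cannot be told apart where MRP8NRASD12 mice are compared with tethBCL2, HR-MDS or MRP8hBCL2 mice. The MRP8hBCL2 and AML post MDS mice are numbered from 3012 to 3626, and the tethBCL2, MRP8NRASD12 and HR-MDS mice from 7465 to 8398. Anything that goes with those ranges cannot be told apart from BCL2 under the MRP8 promoter.

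Spi1 and Cebpe had the widest range over the genotypes. The group means of Cebpe spanned 3.33 log2 units, more than 99.4% of genes, and those of Spi1 2.29, more than 98.4%. Both were lowest in tethBCL2 mice and highest in AML post MDS mice. Next came Egr2, with 1.60, and Cebpa, with 0.99. Klf4 spanned 0.80, Irf8 0.65, Gfi1 0.42 and Cebpb 0.38, and the last 2 moved less than the median gene did. These spans include the error of means of 3 mice.

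**Figure D1:**
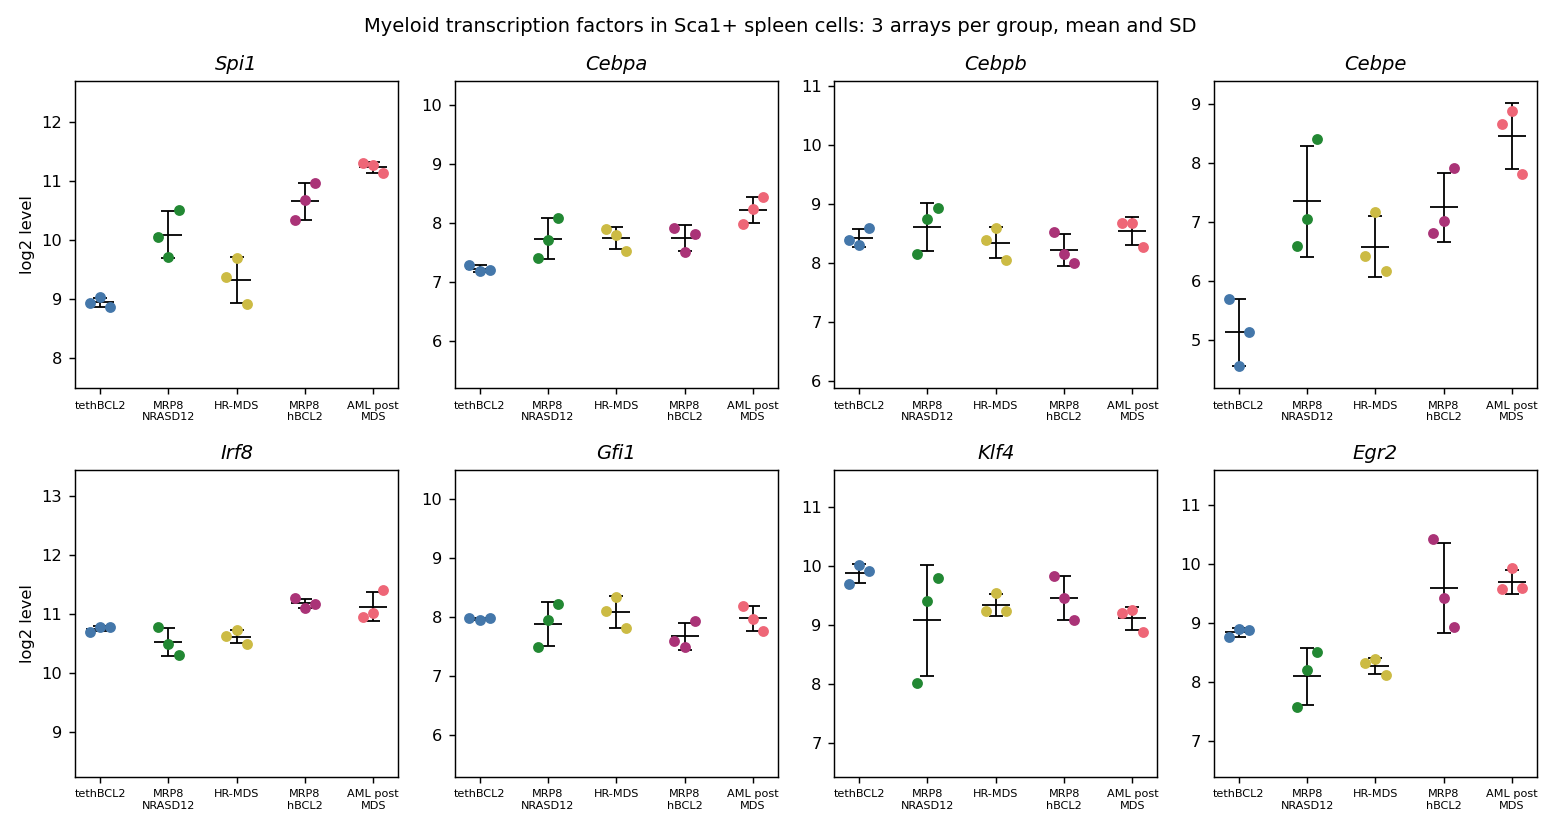
Deposited log2 expression of the 8 transcription factors in 15 mice, 1 panel per gene. Points are arrays, bars are group means and whiskers are the SD (n = 3), and every panel covers the same number of log2 units on its own range. Spi1 and Cebpe are lowest in tethBCL2 and highest in AML post MDS, Egr2 is highest in MRP8hBCL2 and AML post MDS, and in Cebpb and Gfi1 groups next to each other in the order of means overlap.

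Spi1 was at 8.93, 9.02 and 8.87 in the tethBCL2 mice and at 9.36, 9.69 and 8.92 in the HR-MDS mice, and those groups overlapped. It was at 10.04, 9.71 and 10.51 in MRP8NRASD12, 10.33, 10.67 and 10.96 in MRP8hBCL2, and 11.30, 11.27 and 11.13 in AML post MDS mice. Each of the 3 AML post MDS arrays thus lay above all 12 others. The group means were 8.94 ± 0.08 (SD, n = 3), 9.33 ± 0.39, 10.09 ± 0.40, 10.65 ± 0.31 and 11.23 ± 0.09 in the same order.

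Cebpe was at 5.68, 4.55 and 5.13 in tethBCL2 mice, below every array of the other groups. The Y-linked gene Kdm5d was at 4.08 to 4.56 in the mice with low Eif2s3y, and the lowest Cebpe value lay within that range. Whether Cebpe was above background in tethBCL2 mice was not tested, so differences from that group may be understated. The values of Cebpe were 6.42, 7.16 and 6.16 in HR-MDS, 6.82, 7.00 and 7.90 in MRP8hBCL2, 6.59, 7.04 and 8.40 in MRP8NRASD12, and 8.65, 8.88 and 7.81 in AML post MDS mice. From HR-MDS upwards each neighbouring pair in that order overlapped. MRP8NRASD12 mouse 8159 carried the highest value of its group for Cebpe and for 7 of the 8 factors in all, and for 34.1% of all genes. The SD within groups was 0.52 to 0.94, so that means of Cebpe carry more error than those of Irf8, whose SD was 0.05 to 0.25.

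Cebpa followed the same lowest and highest genotypes over a narrower range. It was at 7.29, 7.18 and 7.20 in tethBCL2, 7.40, 7.72 and 8.09 in MRP8NRASD12, 7.89, 7.79 and 7.53 in HR-MDS, 7.92, 7.50 and 7.82 in MRP8hBCL2, and 7.99, 8.23 and 8.44 in AML post MDS mice. The means of the 3 middle groups, 7.74, 7.74 and 7.75, lay within the spread of any of them. Cebpb, by contrast, stayed between 7.99 and 8.93. It was at 8.52, 8.15 and 7.99 in MRP8hBCL2, 8.39, 8.58 and 8.05 in HR-MDS, 8.38, 8.29 and 8.60 in tethBCL2, 8.68, 8.67 and 8.27 in AML post MDS, and 8.15, 8.74 and 8.93 in MRP8NRASD12 mice, and every pair of groups next to each other in that order overlapped.

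Irf8 and Egr2 had another order. Irf8 was at 10.78, 10.50 and 10.30 in MRP8NRASD12, 10.62, 10.72 and 10.50 in HR-MDS, and 10.70, 10.78 and 10.78 in tethBCL2 mice, which overlapped. It was at 10.95, 11.01 and 11.40 in AML post MDS and 11.26, 11.10 and 11.17 in MRP8hBCL2 mice, above all 9 arrays of the other 3 groups. The 2 genotypes with BCL2 under the MRP8 promoter were likewise highest for Egr2. Its values were 7.58, 8.20 and 8.52 in MRP8NRASD12, 8.32, 8.40 and 8.12 in HR-MDS, 8.76, 8.90 and 8.88 in tethBCL2, 10.43, 9.43 and 8.94 in MRP8hBCL2, and 9.58, 9.93 and 9.59 in AML post MDS mice. MRP8NRASD12 and HR-MDS overlapped, MRP8hBCL2 and AML post MDS overlapped, and tethBCL2 lay between them.

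Gfi1 was at 7.58, 7.49 and 7.93 in MRP8hBCL2, 7.48, 7.94 and 8.22 in MRP8NRASD12, 7.98, 7.94 and 7.97 in tethBCL2, 8.19, 7.96 and 7.77 in AML post MDS, and 8.10, 8.34 and 7.81 in HR-MDS mice. Klf4 was at 8.03, 9.41 and 9.81 in MRP8NRASD12, 9.21, 9.25 and 8.89 in AML post MDS, 9.25, 9.56 and 9.24 in HR-MDS, 9.84, 9.47 and 9.09 in MRP8hBCL2, and 9.70, 10.02 and 9.92 in tethBCL2 mice. For both genes every pair of neighbouring groups overlapped. The low mean of Klf4 in MRP8NRASD12 mice came from mouse 8157, at 8.03, the lowest of all 15 mice, and Gfi1 (7.48) and Egr2 (7.58) were also lowest of all in that mouse. HR-MDS mouse 8398 had the lowest value of its group for all 8 factors, and it was the lowest of its group for 35.5% of all genes.

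The comparison of HR-MDS with its BCL2 parent line, tethBCL2, asks what the NRAS transgene adds. None of the 8 factors passed an adjusted p of 0.05 (limma, Benjamini-Hochberg over all 14860 genes), where 0.451% of all genes did. The 2 factors with the smallest p, Cebpe and Cebpa, were higher in every HR-MDS mouse than in any tethBCL2 mouse, by 1.46 (SE 0.47, adjusted p = 0.217, limma) and 0.51 (SE 0.17, adjusted p = 0.245). Their 95% intervals were 0.45 to 2.46 and 0.14 to 0.89. Groups did not overlap, in the higher direction, for 16.6% of all genes. Klf4 and Egr2 were lower in every HR-MDS mouse, by 0.53 (SE 0.34) and 0.57 (SE 0.30), and 9.53% of all genes separated that way. Spi1 differed by 0.39 (SE 0.22), with an interval of -0.08 to 0.85.

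Against MRP8NRASD12, the line that supplies the NRAS transgene, none of the 8 factors passed in HR-MDS mice, and 0.0135% of all genes did. Spi1 was lower in every HR-MDS mouse, with a difference of -0.76 (SE 0.22), an unadjusted p of 0.0036 and an adjusted p of 0.740 (limma). In 3.87% of all genes the HR-MDS arrays lay wholly below. Cebpa did not differ measurably, with an interval of -0.37 to 0.38.

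In AML post MDS mice against MRP8hBCL2, the corresponding comparison in the other model, again 0 of 8 factors passed, where 1.93% of all genes did. Without adjustment 3 had a p under 0.05 and were higher in AML post MDS, as 10.1% of all genes were: Spi1 by 0.58 (SE 0.22), Cebpa by 0.47 (SE 0.17) and Cebpe by 1.21 (SE 0.47), with adjusted p of 0.195, 0.187 and 0.211 (limma). The AML post MDS arrays lay wholly above for Spi1 and Cebpa, as they did for 11.0% of all genes, and overlapped for Cebpe. The difference of Cebpe with NRASD12 was thus 1.46 on tethBCL2 and 1.21 on MRP8hBCL2, and a contrast of the 2 effects gave 0.25 (SE 0.66, adjusted p = 0.9999, limma). For none of the 8 factors did this contrast pass. It passed for 0 of 14860 genes, and at an unadjusted p under 0.05 for 380 with a more positive effect on tethBCL2 and 304 with a more positive one on MRP8hBCL2. Its interval for Cebpe, -1.17 to 1.67, leaves room for effects that differ more than 2-fold.

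The disease models were then compared with each other. In AML post MDS against HR-MDS mice, 4 of 8 factors rose, beside 14.3% of all genes (24.2% passed in either direction). Spi1 was 3.75-fold higher (log2 difference 1.91, SE 0.22, adjusted p = 3.6e-05, limma), Cebpe 3.65-fold (1.87, SE 0.47, adjusted p = 0.0096), Egr2 2.68-fold (1.42, SE 0.30, adjusted p = 0.0035) and Irf8 1.42-fold (0.50, SE 0.14, adjusted p = 0.0146). Cebpa was also above in every AML post MDS mouse, by 0.48, with an adjusted p of 0.0603, and 21.6% of all genes separated in this way. Cebpb, Gfi1 and Klf4 differed by 0.19, -0.11 and -0.23 and did not pass. The call for Irf8 was lost without HR-MDS mouse 8398 (adjusted p = 0.0622) or without AML post MDS mouse 3518 (0.0681). Mouse 3518 was the mouse of that group with low Eif2s3y, and the other 3 calls held without it. Age and the range of mouse numbers also differed between these groups, and their effects and that of genotype cannot be told apart.

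**Figure D2:**
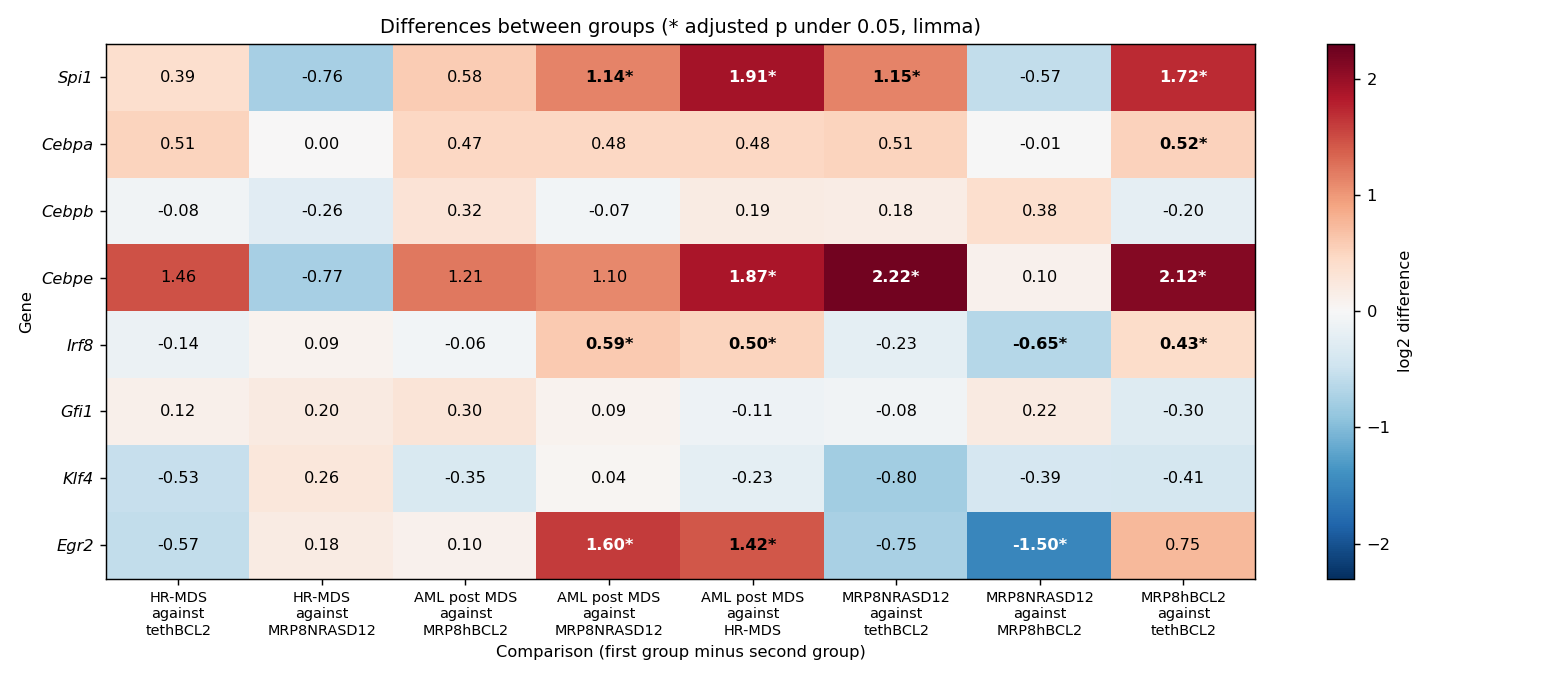
Log2 differences of the 8 transcription factors (rows) in 8 comparisons of genotypes (columns, first group minus second), with red cells for higher and blue for lower values and an asterisk where the limma adjusted p was under 0.05. Spi1, Cebpe, Egr2 and Irf8 carry an asterisk in AML post MDS against HR-MDS, and no factor does in the 3 comparisons of a double transgenic group that are listed first.

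Against MRP8NRASD12, AML post MDS mice had higher Egr2 (3.04-fold, log2 difference 1.60, adjusted p = 0.0017, limma), Spi1 (2.21-fold, 1.14, adjusted p = 0.0018) and Irf8 (1.51-fold, 0.59, adjusted p = 0.0061), so 3 of 8 passed, beside 13.6% of all genes (22.4% in either direction). The Irf8 call was lost when the spread was taken from these 6 arrays alone (adjusted p = 0.0760). Cebpa (0.48, adjusted p = 0.0625) and Cebpe (1.10, adjusted p = 0.111) passed only without MRP8NRASD12 mouse 8159, which had the highest Cebpe of its group, at adjusted p of 0.0151 and 0.0177, and Cebpa also without AML post MDS mouse 3622 or with array weights.

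The single transgenic lines differed among themselves. MRP8hBCL2 and tethBCL2 mice both carry human BCL2, and they differ in what drives it and in the range of their mouse numbers. In MRP8hBCL2 4 of 8 factors were higher, beside 13.5% of all genes (22.6% in either direction). They were Spi1 3.28-fold (adjusted p = 8.9e-05, limma), Cebpe 4.34-fold (adjusted p = 0.0048), Cebpa 1.44-fold (adjusted p = 0.0445) and Irf8 1.34-fold (adjusted p = 0.0365). The last 2 calls were fragile. Both were lost without any 1 of the 3 tethBCL2 mice or without MRP8hBCL2 mouse 3012 or 3391, and Irf8 also without 3386. Egr2, 0.75 higher (SE 0.30, adjusted p = 0.0942), passed without MRP8hBCL2 mouse 3391, at 1.08 and an adjusted p of 0.0183.

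MRP8NRASD12 mice had higher Spi1 (2.22-fold, adjusted p = 0.0067, limma) and Cebpe (4.67-fold, adjusted p = 0.0111) than tethBCL2 mice, 2 of 8 factors beside 5.98% of all genes (8.83% in either direction). The Cebpe call was lost without tethBCL2 mouse 7465 (1.94, adjusted p = 0.0530). Klf4 differed by -0.80 (adjusted p = 0.178) and by -0.27 without mouse 8157. Against MRP8hBCL2, MRP8NRASD12 mice had lower Egr2 (log2 difference -1.50, adjusted p = 0.0029) and Irf8 (-0.65, adjusted p = 0.0036), 2 of 8 factors beside 12.2% of all genes (22.1% in either direction). Cebpe differed by 0.10 between these lines, with an interval of -0.90 to 1.11. Without mouse 8157 Cebpb was higher in MRP8NRASD12 by 0.61 (adjusted p = 0.0282), against 0.38 with it (adjusted p = 0.220). Spi1 differed by -0.57 (adjusted p = 0.0797) and passed without mouse 8159 (-0.78, adjusted p = 0.0247) or without MRP8hBCL2 mouse 3012 (-0.73, adjusted p = 0.0408), with array weights (adjusted p = 0.0097) and with array medians subtracted (adjusted p = 0.0392). Several of the comparisons share a group of arrays, so their results are not independent of each other. The exact permutation test for 3 against 3 mice cannot go below a two-sided p of 0.1, which it reached for every pair of groups that did not overlap.

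The genes that PU.1 and the C/EBP factors are known to activate were examined beside them. Of 19 listed targets of PU.1 and the C/EBPs, 15 had a row. In HR-MDS against tethBCL2, where no factor passed, 3 of these 15 rose and none fell: Mpo, the granule myeloperoxidase, by 3.47 (adjusted p = 0.0203, limma), Itgam, the integrin CD11b, by 2.78 (adjusted p = 0.0395) and Csf3r, the G-CSF receptor, by 2.17 (adjusted p = 0.0432). The median of the list was 1.11, and that of all genes 0.04. In AML post MDS against HR-MDS 6 of 15 rose, with Elane, neutrophil elastase, up by 3.20 and Ctsg, cathepsin G, by 2.59, and the list median was 0.63, against 0.00 for all genes. In AML post MDS against MRP8NRASD12, where Spi1 was 2.21-fold higher, 0 of 15 rose. There 3 fell (Itgam -1.57, Itgb2 -0.83 and Ncf1 -0.80), beside 8.74% of all genes. In MRP8NRASD12 against MRP8hBCL2, where Spi1 differed by -0.57, 8 of 15 rose, beside 9.93% of all genes. Against tethBCL2, 13 rose in MRP8NRASD12 and 6 in MRP8hBCL2, both with higher Spi1. The relation of the list to the factors was not tested. The lists share genes. Mpo, Elane, Prtn3 and Ctsg, all among the 6 that rose in AML post MDS against HR-MDS, are also in the primary granule list. Itgam and Csf3r are also neutrophil markers, and Csf1r, Cd14 and Fcgr1 are also monocyte and macrophage markers.

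Secondary and tertiary granule genes are known targets of C/EBP epsilon. Of 8 listed, 6 had a row: Ltf, Lcn2, Camp, Ngp, Mmp8 and Mmp9. All 6 rose in HR-MDS against tethBCL2, among them Lcn2, the siderophore binder lipocalin 2, by 5.63 and Ngp, neutrophilic granule protein, by 5.54, with a list median of 4.59 while Cebpe differed by 1.46. Against tethBCL2, 6 of 6 also rose in MRP8NRASD12 (list median 6.12, Cebpe 2.22) and 4 of 6 in MRP8hBCL2 (3.47, Cebpe 2.12), so that both the list and Cebpe were lowest in tethBCL2. Of all genes 5.98% and 13.5% rose in these 2 comparisons, and 0.451% passed in either direction in HR-MDS against tethBCL2. In AML post MDS against HR-MDS, where Cebpe rose 3.65-fold, 0 of the 6 passed in either direction. The list median was 0.16, and Ngp, the closest to passing, differed by 1.05 (adjusted p = 0.209, limma). The 5 measured primary granule markers (Mpo, Elane, Prtn3, Ctsg and Ms4a3), made earlier in the lineage, all rose in that comparison, with a median of 2.59. In AML post MDS against MRP8NRASD12 the median of the 6 was -1.41 and 1 fell (Mmp9, -1.91), while Cebpe differed by 1.10. Against MRP8hBCL2 1 of the 6 rose (Mmp9, 2.95), with a median of 1.06 beside 1.21 for Cebpe. In the contrast of NRASD12 effects none passed, and the median was 3.53 beside 0.25 for Cebpe. Of all genes 24.2%, 22.4% and 1.93% passed in AML post MDS against HR-MDS, MRP8NRASD12 and MRP8hBCL2. Neither the difference between the 2 lists nor their relation to Cebpe was tested.

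Between MRP8NRASD12 and MRP8hBCL2 mice Cebpe differed by 0.10 (from -0.43 without mouse 8159 to 0.48 without mouse 8157). Of the 6 secondary and tertiary granule genes 3 were higher in MRP8NRASD12, beside 9.93% of all genes. These were the collagenase Mmp8 (by 4.04), the gelatinase Mmp9 (by 4.86) and lactoferrin, Ltf (by 2.77), and the list median was 2.22, against 0.04 for all genes. The median level of the 6 genes per array was 6.44, 5.80 and 6.41 in tethBCL2, 9.66, 9.47 and 10.07 in MRP8hBCL2, 10.90, 10.70 and 10.03 in AML post MDS, and 11.55, 11.95 and 12.68 in MRP8NRASD12 mice. In HR-MDS it was 11.4 and 11.95 in mice 8111 and 8019 and 8.79 in mouse 8398, the mouse with the lowest value of every factor.

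**Figure D3:**
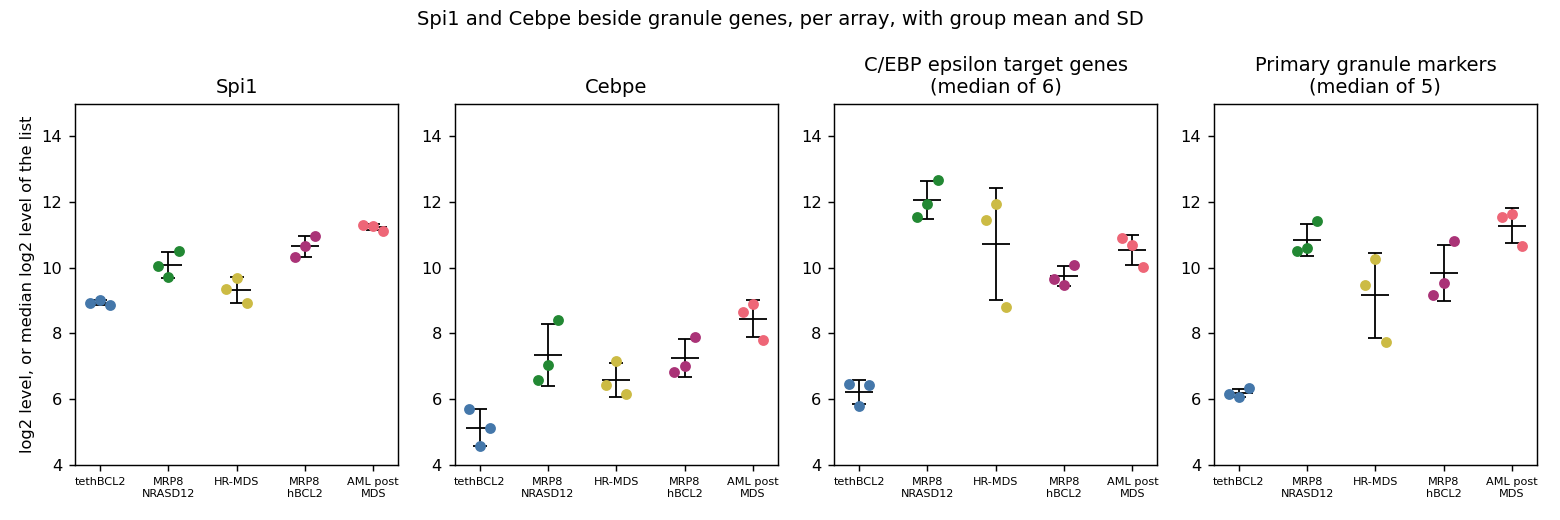
Log2 level of Spi1 and Cebpe, and the median log2 level of 6 C/EBP epsilon target genes and of 5 primary granule markers, per mouse in each genotype. Points are arrays, bars are group means and whiskers are the SD (n = 3). The factors are highest in AML post MDS mice, while the C/EBP epsilon target genes are highest in the MRP8NRASD12 mice and in 2 of the HR-MDS mice, at 11.4 and above. Levels of different panels are not compared.

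Markers of the cell types that the sorted cells could hold were summed per array. The summed level of 13 neutrophil markers, which include the 6 granule genes above, was 9.50 to 9.79 on the log2 scale in tethBCL2, 12.5 to 15.4 in HR-MDS, 13.8 to 14.2 in MRP8hBCL2, 14.5 to 15.2 in AML post MDS and 15.2 to 16.1 in MRP8NRASD12 mice. All 13 rose in HR-MDS and in MRP8NRASD12 against tethBCL2, and 0 of 13 passed in AML post MDS against HR-MDS. The 14 measured monocyte and macrophage markers summed to 11.5 to 11.9 in tethBCL2 and to 12.6 to 13.6 in HR-MDS, MRP8NRASD12 and AML post MDS mice, while MRP8hBCL2 mice ranged from 11.6 to 13.0. Single markers went both ways. In AML post MDS against HR-MDS 3 rose, among them Cd14 (1.86) and Cx3cr1 (1.30), and 2 fell, among them Cd163 (-1.50). Against MRP8NRASD12, 0 rose and 2 fell (Marco -1.65 and Cd163 -1.43). In MRP8NRASD12, 11 rose against tethBCL2 and 6 against MRP8hBCL2, and none fell. T cell markers, 8 of 10 measured, summed to 13.9 to 14.0 in MRP8hBCL2 and 13.3 to 13.6 in AML post MDS mice, above the 12.1 to 12.9 of the other 3 groups, which is also how Irf8 and Egr2 divided the groups. Of the 8 T cell markers, 5 rose and 1 fell in AML post MDS against HR-MDS, 5 rose in AML post MDS against MRP8NRASD12, 6 rose in MRP8hBCL2 against tethBCL2, and 7 fell in MRP8NRASD12 against MRP8hBCL2. Cd3g, a chain of the T cell receptor complex, differed by 2.33, and Cd3e, another chain, by 1.06 in the first of these. Of 9 B cell markers 3 fell in AML post MDS against HR-MDS, among them Pax5 by -0.63, 2 rose and 3 fell in AML post MDS against MRP8NRASD12, and 1 rose and 4 fell in MRP8NRASD12 against MRP8hBCL2. Of 8 measured markers of dendritic cells, which depend on IRF8, 1 fell in AML post MDS against HR-MDS (Bst2, -0.60), 4 fell in MRP8NRASD12 against MRP8hBCL2, among them Siglech (-1.42) and Xcr1 (-1.04), and 1 rose in MRP8hBCL2 against tethBCL2 (Xcr1, 1.21). There were 3 that fell in AML post MDS against MRP8hBCL2 (Siglech -1.65, Ccr9 -1.52 and Clec9a -1.46), while Irf8 differed by -0.06. Stem and progenitor markers, 8 of 10 measured, rose in 4 cases in AML post MDS against HR-MDS, with Cd34 by 1.34, and in 7 in MRP8NRASD12 against tethBCL2, with Cd34 by 2.88. Of 4 erythroid markers 1 fell in AML post MDS against HR-MDS, the transferrin receptor Tfrc, by -0.93. Of all genes, 14.3% rose and 9.90% fell in AML post MDS against HR-MDS, and 13.6% and 8.74% in AML post MDS against MRP8NRASD12. The shares were 13.5% and 9.12% in MRP8hBCL2 against tethBCL2, 9.93% and 12.2% in MRP8NRASD12 against MRP8hBCL2, and 5.98% and 2.85% in MRP8NRASD12 against tethBCL2. In either direction 0.451% passed in HR-MDS against tethBCL2 and 1.93% in AML post MDS against MRP8hBCL2. A dendritic list with 1 of 8 passing is near these shares. The part of cell composition in the differences of the factors was not tested.

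Of 35 listed partners and relatives of the factors (other members of their families, cofactors, inhibitors and factors that act beside them in blood cells), 30 had a row. None passed in either comparison of HR-MDS with a parent line or in AML post MDS against MRP8hBCL2. In AML post MDS against HR-MDS 12 of 30 rose and 2 fell, where 14.3% of all genes rose and 9.90% fell. In AML post MDS against MRP8NRASD12 10 rose and 1 fell, where 13.6% and 8.74% of all genes did. The widest of these differences were in the same 3 genes. Egr3, a paralog of Egr2, was higher by 1.42 (adjusted p = 0.0080, limma) and 1.46 (0.0073), Junb, an AP-1 subunit, by 0.94 and 1.36, and Id2, an inhibitor of basic helix-loop-helix factors, by 1.23 and 1.20. In MRP8NRASD12 against MRP8hBCL2 1 of 30 rose and 9 fell (9.93% and 12.2% of all genes), with Egr3 at -1.74, Junb at -1.73 and Id2 at -1.16. In MRP8hBCL2 against tethBCL2 10 rose and 3 fell (13.5% and 9.12% of all genes), and Nab2, a corepressor that binds EGR proteins, was higher by 1.04 (adjusted p = 1.4e-05, limma). In MRP8NRASD12 against tethBCL2 3 rose, among them Myb, a factor of immature blood cells, by 0.94, and 4 fell (5.98% and 2.85% of all genes).

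The genes whose values lay nearest to a factor over the 15 arrays were found by the root mean square difference after each gene was centred on its own mean, for the 3 factors whose group means spanned at least 1 log2 unit. Nearest to Egr2 were Egr3 (0.251 log2 units), Junb (0.257) and Bcl10 (0.325), against 0.740 for the variation of Egr2 about its own mean. Nearest to Spi1, which varied by 0.872, were Gyg, the self-glucosylating primer of glycogen synthesis (0.178), Frrs1, a ferric reductase (0.209), and Gng12, a G protein gamma subunit (0.246). Nearest to Cebpe, which varied by 1.22, were 1700020L24Rik (0.345), Ccnb2, the mitotic cyclin B2 (0.358), and Glrx, glutaredoxin (0.361). Among the members, Spi1 ranked 49th in nearness to Cebpe (0.596), and Cebpe ranked 844th in nearness to Spi1. These values describe 15 arrays in 5 genotypes and carry no test.

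**Figure D4:**
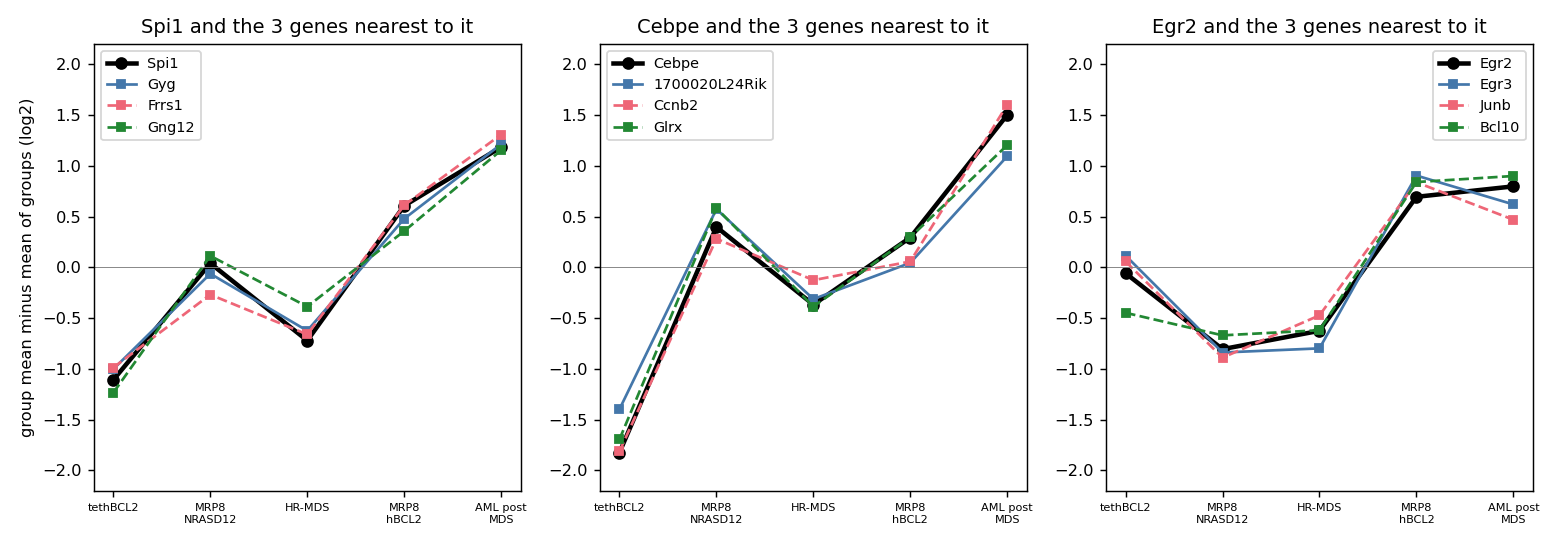
Group means of Spi1, Cebpe and Egr2 (black) and of the 3 genes nearest to each, in log2 units after subtraction of the mean over the 5 genotypes, plotted by genotype. Lines join the groups to guide the eye. Egr3 lies close to Egr2 in every genotype, Junb departs from it most in AML post MDS, and Bcl10 departs from it most in tethBCL2.

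Promoter windows (RefSeq, GRCm38.p6, 250 bases before to 50 after a transcription start) were on hand for 6 of the 8 members, 12 windows in all, and not for Spi1 and Cebpe. They were searched on both strands for short forms of the motifs of the factors themselves: GAGGAAGT for PU.1, TTGCNNAA for C/EBP, GAAANNGAA for IRF, AAATCAC for GFI1, GGGTGTGG for KLF and GCGTGGGCG for EGR. Over all 32851 windows these letters occurred in 3.20%, 10.8%, 8.56%, 3.20%, 3.56% and 0.612%. Among the members 3 windows held one: the C/EBP letters at Gfi1, the GFI1 letters at Irf8 and the IRF letters at Egr2. Irf8 and Egr2 were picked for display because these 2 genes passed together in 3 comparisons. Irf8 had 2 windows and Egr2 5. The window of each that held a match is shown, with the matching letters in capitals, and their other windows held none. The Irf8 window lies at chr8:120736108-120736407 on the plus strand and holds the GFI1 letters in reverse, 176 bases before the start, and the Egr2 window at chr10:67537316-67537615 on the plus strand holds the IRF letters 197 bases before the start.
Irf8: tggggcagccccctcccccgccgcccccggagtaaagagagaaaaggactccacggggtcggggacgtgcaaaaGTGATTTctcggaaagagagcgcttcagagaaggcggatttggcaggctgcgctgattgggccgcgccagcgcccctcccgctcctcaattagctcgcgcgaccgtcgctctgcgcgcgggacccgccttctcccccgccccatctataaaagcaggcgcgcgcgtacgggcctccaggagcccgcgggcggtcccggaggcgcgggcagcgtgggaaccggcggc
Egr2: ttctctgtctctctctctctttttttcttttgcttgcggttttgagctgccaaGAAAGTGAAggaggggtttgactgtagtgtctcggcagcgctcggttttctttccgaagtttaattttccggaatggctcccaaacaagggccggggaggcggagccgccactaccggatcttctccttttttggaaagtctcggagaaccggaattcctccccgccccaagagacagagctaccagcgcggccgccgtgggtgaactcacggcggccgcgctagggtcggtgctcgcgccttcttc
A match of letters is a description of the sequence and not a measured binding site.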

How the data were processed

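Total RNA of Sca1+ spleen cells, enriched with antibody-coupled microbeads, was hybridised by the authors to Affymetrix Mouse Exon 1.0 ST arrays, 1 mouse per array. The deposited series table holds 1 log2 expression value per probe set and array, the scale being read from the values, and how the authors summarised and normalised the probes was not found in the labels or methods. The submitters' processing notes name build mm9. Of 23332 probe sets, 14996 had 1 gene symbol, 1019 had several and 7317 had none in the platform annotation. Of the 14996 with 1 symbol, 14941 were matched to RefSeq by Entrez identifier. For the 135 genes with several rows the row with the highest mean over 15 arrays was kept, which left 14860 genes. No value was filtered, rescaled or left out in the reported fit.

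Group means were fitted over all 15 arrays with limma 3.58.1 (lmFit and eBayes) in R 4.3.3, two-sided, with Benjamini-Hochberg adjustment over the 14860 genes and a threshold of 0.05. Of 10 possible pairs of groups 8 were compared, with 1 contrast of differences. Exact permutation tests used 3 against 3 arrays, and with so few arrays their number sets the limit of precision. The fit was tested on simulated data with known changes.

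All members were named. From each other list, genes to name were taken from up to 3 per comparison with the largest difference among those that passed. Where none passed they were taken from up to 2 with the smallest p. Only some of these genes are named, and not always the one with the largest difference. The members and lists were chosen with earlier results of these data known. A repeat with limma's array weights, with quantile or median scaling, with a filter on low values, with all probe sets, with the arrays compared alone, with the methods' t-test and without each array served as alternatives.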

Additional observations from a re-analysis of the deposited data

How the results depend on the processing

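The number of members that passed moved by more than 1.5 times, or to or from 0, as follows. With the spread taken from only the arrays compared, 1 member passed in HR-MDS against tethBCL2 (Egr2, against 0) and 1 in MRP8NRASD12 against MRP8hBCL2 (against 2). With array weights 2 passed in HR-MDS against tethBCL2, 1 in AML post MDS against MRP8hBCL2 (against 0), 4 in MRP8NRASD12 against tethBCL2 (against 2) and 5 in MRP8NRASD12 against MRP8hBCL2 (against 2). With the methods' t-test and Benjamini-Hochberg adjustment 0 passed in the comparisons of MRP8NRASD12 with AML post MDS, tethBCL2 or MRP8hBCL2. That test gave 2 in AML post MDS against HR-MDS (Spi1 and Egr2, against 4) and 2 in MRP8hBCL2 against tethBCL2 (Spi1 and Irf8, against 4), so Cebpe was lost in both. Without adjustment at their threshold that test gave 4 in HR-MDS against tethBCL2 and 1 in AML post MDS against MRP8hBCL2. Of all 14860 genes it then called 1586 higher and 879 lower in the former, and 907 higher and 604 lower in the latter. With each array's median subtracted 2 passed in MRP8hBCL2 against tethBCL2. Smaller moves were seen there with quantile normalization or all probe sets (3) and array weights (6), in AML post MDS against MRP8NRASD12 with only the arrays compared (2) or array weights (4), in AML post MDS against HR-MDS with array weights, without the lowest 25% of genes or with the t-test unadjusted (5 each), and in MRP8NRASD12 against tethBCL2 and against MRP8hBCL2 with medians subtracted (3 each).

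With 1 mouse left out at a time, 0 passed in each of the comparisons of a double transgenic group with its BCL2 parent line, in HR-MDS against MRP8NRASD12 and in the contrast of differences. The count was 3 to 5 in AML post MDS against MRP8NRASD12 (5 without MRP8NRASD12 mouse 8159) and against HR-MDS, 1 to 3 in MRP8NRASD12 against tethBCL2 (1 without tethBCL2 mouse 7465), and 2 to 3 in MRP8NRASD12 against MRP8hBCL2 and in MRP8hBCL2 against tethBCL2 (2 without MRP8hBCL2 mouse 3012 or any 1 tethBCL2 mouse). Klf4 in MRP8NRASD12 against MRP8hBCL2, at -0.39, ran from -0.75 to 0.14 with 1 mouse left out, the latter without mouse 8157, and was 0.14 without the 2 arrays that stand apart (mice 8157 and 8398), an alternative chosen after seeing the data. Of 1256 values of a member under an alternative, 1190 kept their direction and side of the threshold. The causes were not tested.

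Median subtraction moved the median of all genes by -0.17 in HR-MDS against tethBCL2, -0.21 in MRP8NRASD12 against tethBCL2 and -0.17 in MRP8hBCL2 against tethBCL2, so members lie lower by about that much there: Irf8 then passed in MRP8NRASD12 against tethBCL2 (-0.44, adjusted p = 0.0369, limma). No paired analysis was possible because each mouse has a number of its own.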
